A study of Mus musculus with 8 samples.

Results

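The S100 proteins followed here are 10 genes, S100a1, S100a4, S100a6, S100a8, S100a9, S100a10, S100a11, S100a13, S100a14 and S100a16, of the 27775 gene rows in each of 2 count tables. They were chosen by symbol, with earlier results of these data known, and each of the 10 had its own row with UMIs in both tables. The tables hold droplet single-cell RNA sequencing (10x Genomics 3′ chemistry) of 2 pancreatic ductal adenocarcinomas of KPC mice, one labelled medium and one large in size and called the medium and the large tumor here. Both mice had the same genotype, with LSL-Trp53R172H/+ and Pdx-1-Cre among its alleles, and neither was treated. The LSL alleles are switched on where the Pdx-1 promoter drives Cre, which is the pancreatic lineage and also part of the neighboring gut epithelium. No age was given and no wild-type or normal pancreas was analysed here.

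S100 proteins are small proteins with a pair of EF-hand calcium-binding loops, which mostly work as dimers and open a binding face for target proteins when calcium rises. S100a8 and S100a9 pair to form calprotectin, the most abundant cytosolic protein of neutrophils and a ligand of Tlr4 and of the receptor Ager. S100a10 pairs with annexin A2 at membranes largely without calcium, S100a11 binds annexin A1, S100a4 (also called fibroblast-specific protein) binds nonmuscle myosin, and S100a6 and S100a4 are widely used as markers of carcinoma cells and of the epithelial-mesenchymal transition.

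The medium tumor gave 2812 cells and 20301669 UMIs (unique molecular identifiers, 1 per captured transcript), with a median of 5456.5 UMIs per cell, and the large tumor gave 1533 cells and 2239012 UMIs, with a median of 1037. Each tumor is 1 sample, since its 4 technical replicates were merged in 1 table, so no p-value could be computed and every interval below is a 95% interval of counting error only. Tumor size, mouse, library and depth cannot be told apart. The 2 tables shared 5 cell barcodes. Cells were clustered without any S100 gene and named from fixed markers, which gave 2330 and 1218 epithelial-like cells, 238 and 254 monocyte/macrophage-like cells, 69 and 50 stromal-like (fibroblast) cells and 38 and 11 endothelial-like cells in the medium and large tumors. Another 137 cells of the medium tumor stayed unnamed. Levels are given as CPM, the UMIs of a gene summed over the cells of a group and scaled to the same total for every group. Because each transcript is counted once at its 3′ end, transcript length does not enter a comparison of CPM between genes, although capture can differ between them.

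All 10 genes lie on chromosome 3 (GRCm38, GENCODE M21). S100a1 (90511034 to 90514392, minus strand), S100a13 (90514435 to 90524581, plus), S100a14 (90526856 to 90528837, plus), S100a16 (90537254 to 90543151, plus), S100a4 (90603771 to 90606045, plus), S100a6 (90612882 to 90624181, plus), S100a8 (90668978 to 90670035, plus) and S100a9 (90692632 to 90695721, minus) fill a stretch of 185 kb. S100a11 (93520488 to 93526287, plus) and S100a10 (93555080 to 93564643, plus) lie together 2.82 Mb further along, within 44.2 kb. S100a1 and S100a13 are read in opposite directions, with only 42 bases between their GENCODE starts. For S100a8 and S100a9, which differed most between the tumors, for S100a4, which was high in myeloid cells, and for the abundant S100a6 and S100a11, the 150 bases before and the 10 bases from the RefSeq start (GRCm38.p6, in the direction of transcription) are shown in lower case, with TATAAA, the AP-1 motif TGANTCA and the C/EBP motif TTGNGNAA in capitals where either strand held them. The bases between the GENCODE starts of S100a1 and S100a13 are shown because both genes share them.
S100a8, chr3:90668921-90669080, plus strand: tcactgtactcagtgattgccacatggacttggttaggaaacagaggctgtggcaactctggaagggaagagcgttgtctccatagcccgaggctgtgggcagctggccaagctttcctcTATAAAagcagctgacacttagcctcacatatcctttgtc
S100a9, chr3:90695712-90695871, minus strand: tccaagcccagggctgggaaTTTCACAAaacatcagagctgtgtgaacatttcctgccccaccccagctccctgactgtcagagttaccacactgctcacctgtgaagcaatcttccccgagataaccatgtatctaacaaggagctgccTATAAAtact
S100a4, chr3:90603620-90603779, plus strand: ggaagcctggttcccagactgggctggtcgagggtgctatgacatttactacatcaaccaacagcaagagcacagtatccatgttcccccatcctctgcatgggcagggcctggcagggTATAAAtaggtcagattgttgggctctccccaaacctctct
S100a6, chr3:90612744-90612903, plus strand: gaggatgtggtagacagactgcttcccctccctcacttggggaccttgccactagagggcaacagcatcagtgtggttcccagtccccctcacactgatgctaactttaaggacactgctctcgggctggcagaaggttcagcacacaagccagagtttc
S100a11, chr3:93520346-93520505, plus strand: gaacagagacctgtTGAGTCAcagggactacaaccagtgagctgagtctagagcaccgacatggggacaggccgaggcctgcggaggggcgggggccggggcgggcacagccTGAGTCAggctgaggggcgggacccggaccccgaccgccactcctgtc
S100a1 to S100a13, chr3:90514393-90514434, plus strand: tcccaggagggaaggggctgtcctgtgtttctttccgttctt

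S100a8 and S100a4 held TATAAA 30 and 31 bases before their starts, the usual place of a TATA box, and in S100a9 it began at the annotated start itself. S100a9 also held the C/EBP letters on the reverse strand, 130 bases before its start, and S100a11 held 2 AP-1 motifs, 136 and 38 bases before its start. Over windows of 300 bases around the starts of all 32851 RefSeq promoters, 13.6% held TATAAA, 7.81% the AP-1 letters and 13.3% the C/EBP letters. Windows were found for 8 of the 10 genes, all but S100a10 and S100a14. A match of letters is a description of the sequence and not a measured binding site.

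S100a6 was the most abundant member of epithelial-like and stromal-like cells in both tumors. In the medium tumor it was counted at 12423 CPM in epithelial-like cells (95% interval 12372 to 12475), 5720.0 in stromal-like, 4639 in endothelial-like and 1463 in monocyte/macrophage-like cells. The same groups of the large tumor stood at 10339, 3727, 1314 and 1142 CPM. The order of the 3 best filled groups, epithelial-like over stromal-like over monocyte/macrophage-like, was the same in both tumors with intervals that did not overlap. By UMIs S100a6 was number 2 of the 17181 genes detected in the medium-tumor epithelial-like cells and number 5 of 13564 in those of the large tumor. The 10 members together took 1.86% of all UMIs of epithelial-like cells in the medium tumor and 1.47% in the large tumor, and S100a6 alone supplied 66.8% and 70.2% of that. After each cell was thinned to 2500 UMIs, 99.7% of the epithelial-like cells in the medium tumor held at least 1 S100a6 UMI (99.9% before thinning), as did 89.5% of the monocyte/macrophage-like cells, so the share of cells hardly separated the groups and the level did.

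S100a11 and S100a10 were the next most abundant. S100a11 stood at 3255 CPM in epithelial-like, 2318 in stromal-like, 1582 in endothelial-like and 771 in monocyte/macrophage-like cells in the medium tumor, and at 1005, 690, 376 and 335 CPM in the large tumor. S100a10 was the flattest of the abundant members, at 1747, 1329.9, 1131 and 908 CPM in the medium tumor and 2188, 2010.4, 1689.8 and 1234 CPM in the large tumor. The order of the groups for S100a10 was thus the same in both tumors, but all neighbors in it had overlapping intervals in the large tumor. S100a11 counts are uncertain in 1 respect, since 9 processed pseudogenes match part of the last 300 bases of its transcript, the closest at 98.1% over 160 bases. None of these pseudogenes has a row of its own, and their share in the S100a11 counts was not tested.

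S100a16, S100a1, S100a13 and S100a14 were of middle abundance. S100a16 was counted at 315 CPM in epithelial-like, 311 in stromal-like and 417 in endothelial-like cells in the medium tumor, against 17.4 CPM on 16 UMIs in monocyte/macrophage-like cells. The large tumor had it at 121, 132 and 125 CPM in the first 3 groups and in 1 UMI among the 254 monocyte/macrophage-like cells. S100a16, which is broadly expressed in epithelia and mesenchyme, was therefore low in the myeloid cells of both tumors and present in the other 3 groups. S100a14, known from the plasma membrane of epithelial cells, stood at 132 CPM in the epithelial-like, 63.8 in the endothelial-like, 11.9 in the monocyte/macrophage-like and 11.2 in the medium-tumor stromal-like cells. In the large tumor it stood at 110 CPM in epithelial-like cells, was seen in 1 UMI in stromal-like cells, and was at 0 in monocyte/macrophage-like cells, where a count of 0 allows up to 15.2 CPM. The endothelial-like value of S100a14 rested on 15 UMIs, 73.3% of them in 5 cells.

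S100a1, the S100 protein known from heart and skeletal muscle, was highest in stromal-like cells in the medium tumor at 722 CPM (637 to 816), above 350 in epithelial-like, 212 in monocyte/macrophage-like and 136 in endothelial-like cells. Values in the large tumor were 167 CPM in epithelial-like, 161 in stromal-like and 76.1 in monocyte/macrophage-like cells, so the stromal-like excess of the medium tumor was not seen there, on 11 UMIs. S100a13, which takes part in the unconventional export of Fgf1 and Il1a, hardly varied. It ran from 179 to 238 CPM over the 4 groups of the medium tumor and from 128 to 168 CPM over the 3 best filled groups of the large tumor, with overlapping intervals in the latter.

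S100a4 went the other way from S100a6. It was highest in monocyte/macrophage-like cells, at 276 CPM (243 to 312) in the medium and 396 CPM (313 to 494) in the large tumor, against 89.6 and 145 CPM in epithelial-like cells. Stromal-like cells, where a gene named for fibroblasts might be looked for, gave 36.4 CPM in the medium tumor, on 13 UMIs that all came from 5 of the 69 cells, and 220 CPM in the large tumor, on 15 UMIs of which 86.7% came from 5 cells. The stromal-like level of S100a4 was thus set by few cells in both tumors. Its exons overlap Gm42674 on the same strand over 140 of the last 300 bases of the transcript, and Gm42674 was listed at 0 UMIs in both tables, and how reads that fit both genes were counted was not tested.

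**Figure D1:**
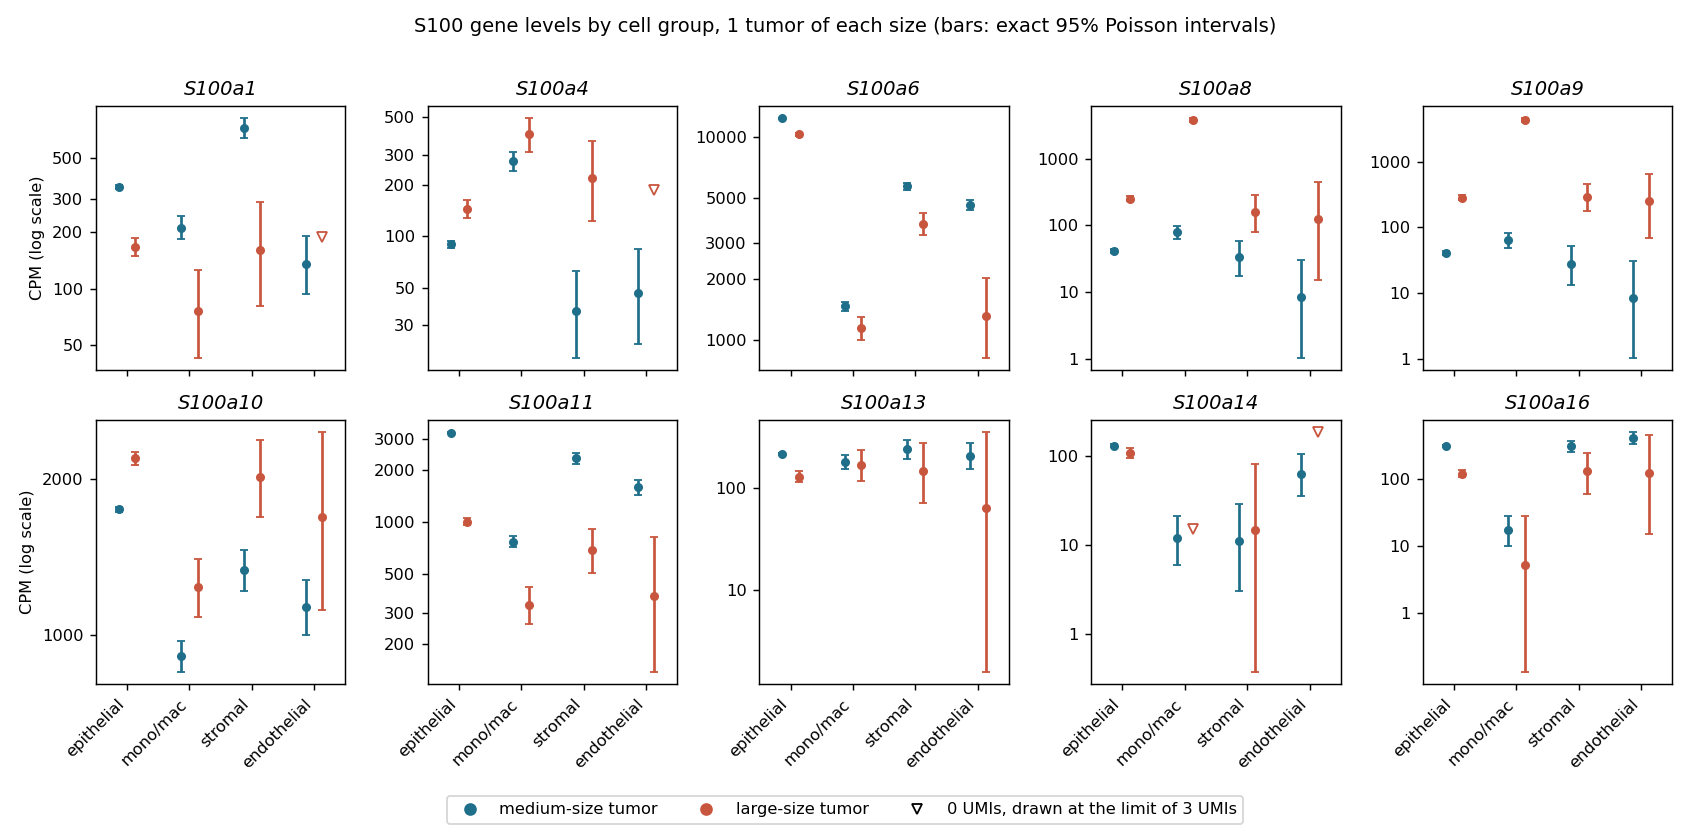
Level of each of the 10 S100 genes in CPM (y axis, log scale) in epithelial-like, monocyte/macrophage-like, stromal-like and endothelial-like cells (x axis) of the medium and the large tumor, 1 sample each. Bars are exact 95% Poisson intervals of the counts and open triangles mark groups with 0 UMIs, drawn at the limit that 3 UMIs would give. S100a6 is highest in epithelial-like cells of both tumors, S100a4 is higher in monocyte/macrophage-like than in epithelial-like cells of both, and S100a8 and S100a9 rise to 3823 and 4305 CPM in the large-tumor monocyte/macrophage-like cells. Without the 5 barcodes of that tumor richest in S100a8 and S100a9, these 2 values fall to 444 and 181 CPM.

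Monocyte/macrophage-like cells were then compared with epithelial-like cells within each tumor, which asks how the S100 set differs between carcinoma cells and the myeloid cells around them. In the medium tumor S100a4 was 3.08 times as high in monocyte/macrophage-like cells (2.69 to 3.52), while S100a6 was 8.49 times, S100a11 4.22 times, S100a14 11.1 times and S100a16 18.1 times lower. That is 1 member over 2-fold higher, where 5.55% of the 7533 genes with at least 200 UMIs in the cells compared were, and 4 over 2-fold lower, where 17.6% of all genes were. The large tumor gave 3 members higher, S100a4 at 2.74 times (2.10 to 3.53), S100a8 at 15.2 times (13.6 to 17.1) and S100a9 at 15.4 times (13.8 to 17.1), beside 8.33% of 1500 genes. Without the 5 barcodes richest in the pair, S100a8 and S100a9 did not pass, at log2 ratios of 0.93 and -0.42. It gave 5 members lower, S100a1, S100a6, S100a11, S100a14 and S100a16, beside 21.5% of all genes. The S100a1 call, on 15 UMIs at a log2 ratio of -1.04, was lost with each cell classed by its own markers (-0.99) and at resolution 1.2 (-0.96). S100a6 was 9.05 times lower there, and S100a14, with 0 UMIs, was at least 7.21-fold lower by a limit of 3 counts. The exact interval of the S100a14 ratio, which also covers the counting error of the epithelial-like level, reached up to 0.172. The median log2 ratio over the 10 members was -0.82 in the medium and -0.93 in the large tumor, against -0.36 and -0.32 over all genes tested.

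S100a4 up and S100a6, S100a11, S100a14 and S100a16 down were shared by both tumors. At resolution 1.2 and after thinning, S100a4 had under 200 UMIs in the large tumor and was not counted, with log2 ratios of 2.21 and 1.55. S100a10 and S100a13 stayed inside 2-fold in both, at ratios of 0.520 and 0.841 in the medium and 0.564 and 1.31 in the large tumor. Epithelial markers were used as a gauge of how low a ratio these libraries can show. Free RNA in the droplets was not measured, and the source of these marker UMIs was not tested. Of the 14 markers listed, 11 also served to name the cell classes, so their low ratios are partly built in. The 14 epithelial markers that could be measured in the medium tumor, which macrophages should lack, stood in the monocyte/macrophage-like cells at 0.0496 to 0.107 of their epithelial-like level, with a median of 0.0654, and the 10 that could be measured in the large tumor at 0 to 0.188, with a median of 0.0544. The ratios of S100a14 (0.0904) and S100a16 (0.0551) in the medium tumor lie within that range, and the part of free RNA in their few UMIs was not tested. S100a6, at 0.118 in the medium and 0.110 in the large tumor, lay just above the range of the first and inside that of the second, and S100a11, at 0.237 and 0.334, lay above both. After thinning to 2500 UMIs a S100a6 UMI was held by 89.5% of the medium-tumor monocyte/macrophage-like cells (92.02% before thinning), while its level there was 1463 CPM against 12423 CPM in epithelial-like cells.

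**Figure D2:**
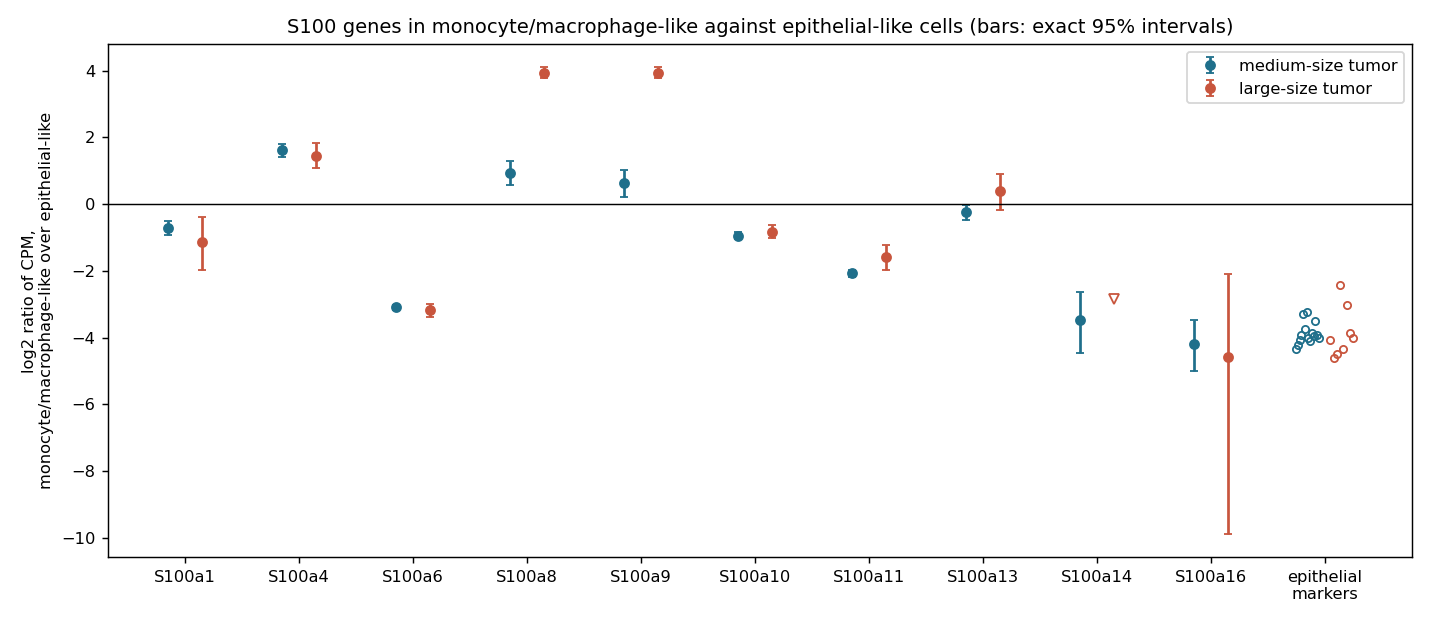
Log2 ratio of CPM, monocyte/macrophage-like over epithelial-like cells (y axis), for each S100 gene in the medium and the large tumor, with exact 95% intervals, and for the epithelial markers as open circles. The open triangle is S100a14 in the large tumor, with 0 UMIs in monocyte/macrophage-like cells, drawn at the limit that 3 UMIs would give, and the S100a14 and S100a16 points lie among the epithelial markers while S100a4 lies above 0 in both tumors.

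S100a8 and S100a9 need to be read by barcode, because a few barcodes held a large share of their UMIs. In the medium tumor the 5 barcodes with most S100a8 and S100a9 held 43.2% of the 1954 UMIs of the pair, and in the large tumor 5 barcodes held 59.6% of 2678 UMIs. The first barcode of the large tumor held 374 S100a8 and 450 S100a9 UMIs among its 1851 UMIs, the second 192 and 185 among 778, and the third 101 and 178 among 548, so that from 44.5% to 50.9% of all UMIs of these barcodes came from the calprotectin pair. All 3 had been grouped with the monocyte/macrophage-like cells. They held 1 to 3 of 11 macrophage markers, 1 or 2 of 10 granulocyte markers (Retnlg in all 3) and 0 epithelial markers.

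The leading barcodes of the medium tumor had a different make-up. The first lay in an epithelial-like cluster led by Cldn6 and Hmga2, with 196 S100a8 and 149 S100a9 UMIs among 5305 UMIs, 8 epithelial markers and 1 granulocyte marker, Cd177. The second lay in an unnamed cluster that carried both epithelial and macrophage markers, with 131 and 134 UMIs among 2993, 7 epithelial markers and 8 of 10 granulocyte markers, among them Cxcr2, Retnlg and Mmp9. The third lay in the epithelial-like cluster led by Tff3 and Reg1, with 77 and 74 UMIs among 3834. By doublet score (Scrublet) the first stood at percentile 55.5 and the second at percentile 67.6 of all cells of the tumor. No cluster of granulocytes was found in either tumor.

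**Figure D3:**
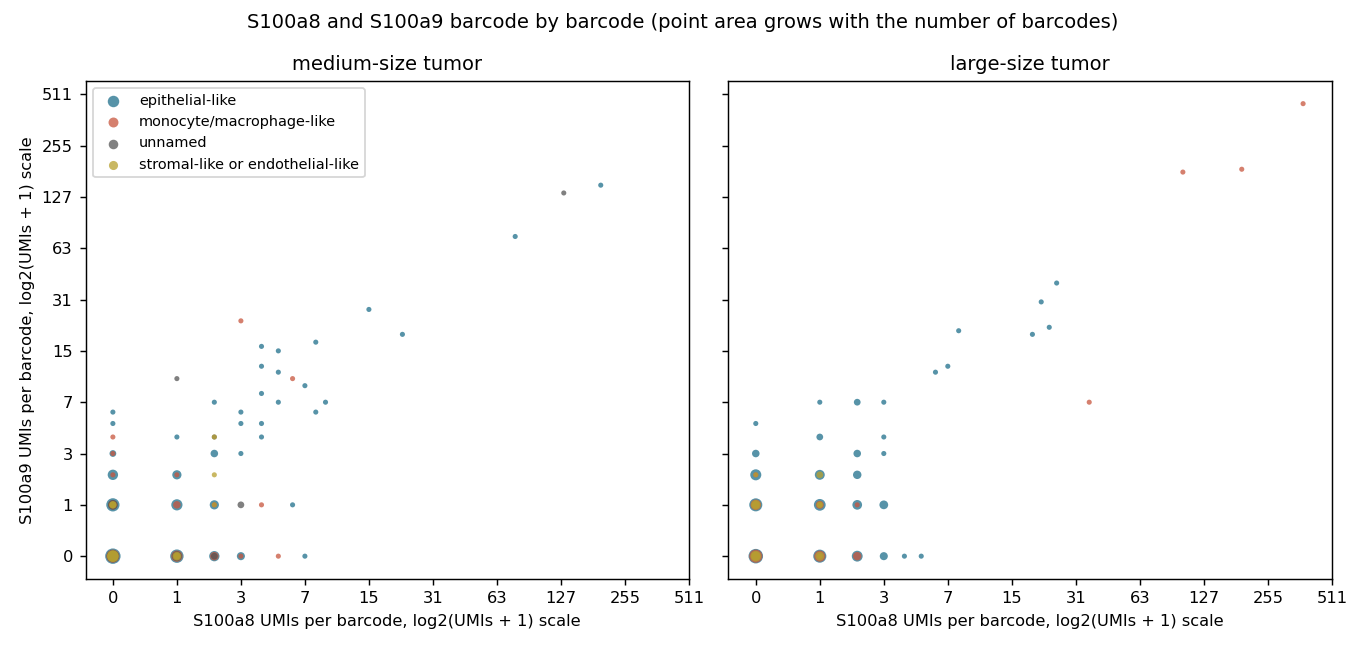
S100a8 against S100a9 UMIs of each barcode, on log2(UMIs + 1) axes, in the medium and the large tumor, colored by the class of the cell. Most barcodes hold few UMIs of either gene, and 3 barcodes of the monocyte/macrophage-like class in the large tumor stand apart at 101 to 374 S100a8 and 178 to 450 S100a9 UMIs.

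Without the 5 leading barcodes of each tumor, a choice made after seeing these values, the monocyte/macrophage-like level of the large tumor dropped from 3823 to 444 CPM for S100a8 and from 4305 to 181 CPM for S100a9. S100a8 was then less than 2-fold higher than in epithelial-like cells, and S100a9 was lower. In the medium tumor, where the leading barcodes were not in the monocyte/macrophage-like cells, leaving them out had the opposite effect and both genes passed 2-fold, at log2 ratios of 1.39 for S100a8 and 1.04 for S100a9, from 0.80 and 0.53. The excess of S100a8 and S100a9 in the macrophages of the large tumor thus rested on 3 barcodes of 254. Outside the leading barcodes the pair was still seen in every cell class. Without them S100a8 ran from 156 to 354 CPM over the epithelial-like clusters of the large tumor. Over those of the medium tumor it ran from 18.9 to 43.3 CPM. With all barcodes kept and after thinning to 500 UMIs, 9.85% of the epithelial-like and 13.8% of the large-tumor monocyte/macrophage-like cells held a S100a8 UMI (25.4% and 18.9% before thinning). Stromal-like cells, which should lack S100a8, held it in 6 of 50 cells after thinning and in 22.0% before, and the part of free RNA in these shares was not tested. The median depth was 1212 UMIs in those stromal-like cells and 688.5 in the monocyte/macrophage-like cells.

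Stromal-like cells of the medium tumor differed from the epithelial-like cells mainly in 4 members. S100a1 was 2.07 times as high (1.82 to 2.34), the single member over 2-fold higher beside 5.29% of 7409 genes. S100a6 was 2.17 times, S100a14 11.8 times and S100a4 2.46 times lower, beside 10.9% of all genes over 2-fold lower. The S100a14 value rested on 4 UMIs and the S100a4 value on 13. S100a10 (0.761), S100a11 (0.712), S100a13 (1.12) and S100a16 (0.986) were within 2-fold in stromal-like cells. The median log2 ratio of the members was -0.40 against -0.16 over all genes. S100a1 lay close to the 2-fold line, and when every cell was given equal weight, or with finer clusters (resolution 1.2), it did not pass. S100a4 was within 2-fold in 4 of 10 alternatives, at log2 ratios of -0.29 with each cell classed by its own markers, -0.89 with equal weight, -0.66 after thinning and -0.997 without the highest doublet scores, from -1.10.

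Within the carcinoma, the medium-tumor epithelial-like cells fell into 8 clusters. They are named here by their leading genes or by the marker set they carried, as a gastric pit-like cluster (Gkn1, Gkn3), a cluster led by Cldn6 and Hmga2, a cycling cluster (Ube2c, Birc5), a Tff3 and Reg1 cluster, a Yap1 and Birc2 cluster, a Krt17 and Cldn4 cluster, a Dmbt1 and Lcn2 cluster, and an Inhba and Bmp2 cluster that carried 7 of 11 mesenchymal markers and 3 of 11 epithelial markers. The 4 clusters that carried at least 3 mesenchymal markers (Cldn6 and Hmga2, cycling, Yap1 and Birc2, Inhba and Bmp2, with 1114 cells) were compared with the other 4 (1216 cells). The Cldn6 and Hmga2, cycling, and Yap1 and Birc2 clusters carried only 3, 3 and 4 of 11 mesenchymal markers. They also carried 9, 9 and 8 of 11 epithelial markers, so most of the cells called mesenchymal-like were epithelial by these markers as well. S100a4 stood at 126 CPM in the mesenchymal-like and 40.7 CPM in the other clusters, 3.10 times as high (2.73 to 3.51), and was the single member over 2-fold higher, beside 2.13% of 7315 genes. S100a14 stood at 69.9 against 216 CPM, 3.09 times lower, and was the single member over 2-fold lower, beside 3.42% of all genes. The other 8 members were within 2-fold, among them S100a6 at a ratio of 1.26, S100a10 at 1.27, S100a11 at 1.14, S100a16 at 0.724 and S100a1 at 0.606. The median log2 ratio of the members was 0.01, against -0.04 over all genes.

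The S100a4 part of this contrast depended on how clusters were drawn. It did not pass 2-fold when only the Inhba and Bmp2 cluster, with at least 5 mesenchymal markers, was set against the rest (log2 ratio 0.67), with finer clusters (0.96), or when the S100 genes were kept in the clustering (0.99). S100a14 stayed over 2-fold lower in all of these. The same split in the large tumor, where 1 cluster led by Ggct and Ramp1 carried 6 of 11 mesenchymal markers, gave 373 against 79.9 CPM for S100a4, 20.9 against 135 CPM for S100a14 and 14786 against 9082 CPM for S100a6. S100a14 was thus low in the cluster with most mesenchymal markers in both tumors, with 1 cluster in each. S100a4 was highest in that cluster in the large tumor alone. In the medium tumor S100a4 stood at 139 CPM there, beside 144 CPM in the Yap1 and Birc2 cluster.

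Cluster by cluster, S100a4 and S100a14 had the widest ranges of the members in the medium tumor, at 20.1 and 16.1 times between the highest and lowest cluster, or 8.99 and 11.5 times with 10 CPM added to each level. S100a14 ran from 371 CPM in the Tff3 and Reg1 cluster over 230 in the Krt17 and Cldn4, 206 in the Dmbt1 and Lcn2, 132 in the gastric pit-like, 119 in the Cldn6 and Hmga2, 74.4 in the cycling and 56.2 in the Yap1 and Birc2 cluster down to 23.1 in the Inhba and Bmp2 cluster. The value of the lowest cluster rested on 43 UMIs, of which 62.8% came from 5 of its 227 cells. Neighbors in that order with overlapping intervals were the Krt17 and Dmbt1 clusters, the pit-like and Cldn6 clusters, and the cycling and Yap1 clusters. The share of cells with a S100a14 UMI, thinned to 2500 UMIs per cell, ran from 3.08% to 48.6% (9.25% to 69.6% before thinning), against 2.10% in the monocyte/macrophage-like cells, which should lack it. In the large tumor the levels were 196 CPM in the pit-like, 144 in the cycling, 142 in the goblet and enterocyte-like (Tff3, Muc2) and 124 in the Onecut2 and Malat1 cluster, with overlapping intervals, above 31.05 in the enterocyte-like (Papss2, Fabp1) and 20.9 in the Ggct and Ramp1 cluster.

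S100a4 ran largely in the opposite order to S100a14 over the epithelial-like clusters of the medium tumor. Its levels were 144 CPM in the Yap1 and Birc2 and 139 in the Inhba and Bmp2 cluster. The Cldn6 and Hmga2 cluster followed at 118 and the cycling cluster at 110, with overlapping intervals between neighbors. Lower levels were 71.2 in the pit-like, 36.4 in the Krt17 and Cldn4, 17.4 in the Tff3 and Reg1 and 7.17 in the Dmbt1 and Lcn2 cluster. The 144 CPM of the Yap1 and Birc2 cluster came to 47.1% from 5 cells, the fullest of which held 64 S100a4 UMIs. Over the 8 epithelial-like clusters the correlation of S100a4 with S100a14 on the log2(CPM + 10) scale was r = -0.820, against -0.589 over all 14 clusters of that tumor and -0.0988 over the 10 of the large tumor. These are descriptions, since the clusters of a tumor share 1 library. S100a4 in the large tumor was highest in the Ggct and Ramp1 cluster at 373 CPM, followed by 135 in the cycling and 84.1 in the Onecut2 cluster, and lowest at 5.17 on 1 UMI in the enterocyte-like cluster.

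S100a6 was high in all carcinoma states of the medium tumor. It ran from 14464 CPM in the Cldn6 and Hmga2 cluster over 13919.6 in the Yap1 and Birc2, 13484 in the cycling, 12841 in the Tff3 and Reg1, 12332 in the Inhba and Bmp2 and 12281 in the pit-like cluster to 9918 in the Krt17 and Cldn4 and 6702 in the Dmbt1 and Lcn2 cluster. The highest was 2.16 times the lowest, and only the Inhba and pit-like neighbors had overlapping intervals. The large tumor was less even. S100a6 ran there from 14786 CPM in the Ggct and Ramp1 cluster over 12960 in the cycling, 8924 in the Onecut2, 7800 in the pit-like and 6074 in the goblet and enterocyte-like cluster to 1454 in the enterocyte-like cluster, a range of 10.2 times with no overlap between neighbors. The enterocyte-like cluster, whose leading genes Fabp1 and Papss2 are those of gut absorptive cells, was thus nearer to macrophages than to the other carcinoma clusters in S100a6, and all 10 members took 0.393% of its UMIs against 2.02% in the Ggct and Ramp1 cluster.

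S100a10 and S100a11 followed other orders than S100a6. Both peaked in the Yap1 and Birc2 cluster of the medium tumor, S100a10 at 2552 CPM and S100a11 at 4170.4 CPM. S100a10 was lowest in the pit-like cluster at 1161 CPM, and S100a11 in the Inhba and Bmp2 cluster at 2021 and the Dmbt1 and Lcn2 cluster at 2064 CPM, which overlapped. S100a10 in the large tumor was highest in the Ggct and Ramp1 cluster at 3010.4 CPM and differed by 1.95 times over the clusters, while S100a11 ran from 1489 CPM in the cycling to 150 CPM in the enterocyte-like cluster. S100a16 peaked in the Krt17 and Cldn4 cluster of the medium tumor, at 611 CPM, above 362 in the next cluster and 226 in the cycling cluster. S100a13 was highest in the pit-like cluster of the medium tumor at 301 CPM, and in the large tumor it stood between 98.1 and 160 CPM in 5 clusters and at 15.5 CPM on 3 UMIs in the enterocyte-like cluster. Beside these values, 44.6% of 7315 genes in the medium and 72.4% of 1358 in the large tumor differed over 2-fold between their highest and lowest epithelial-like cluster. With 10 CPM added, S100a11 and S100a13 differed by 9.37 and 6.66 times over the clusters of the large tumor, more than 86.7% and 81.4% of its genes.

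**Figure D4:**
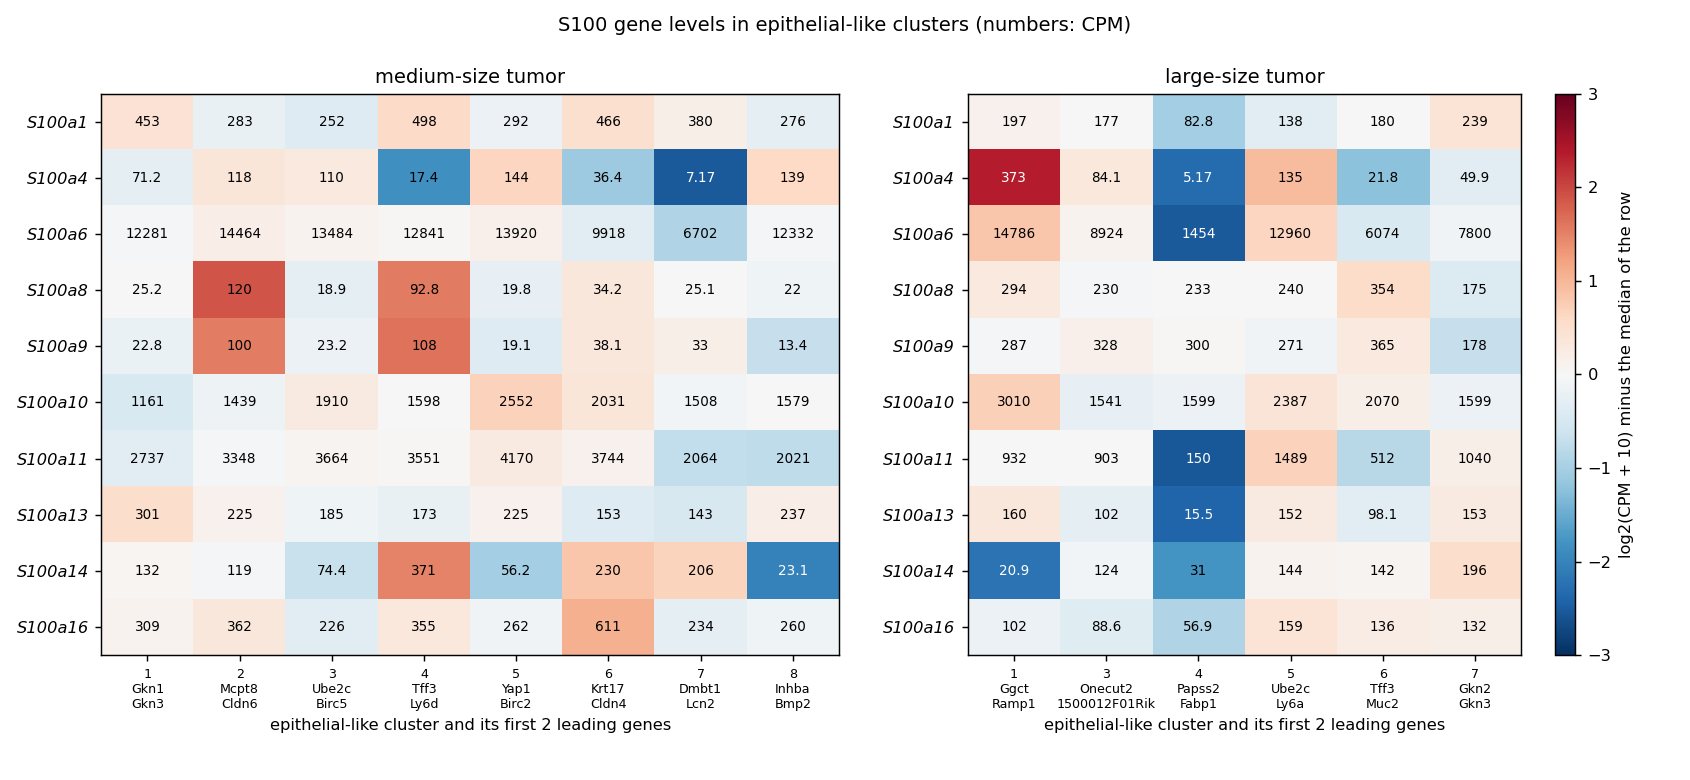
Level of the 10 S100 genes (rows) in the 8 epithelial-like clusters of the medium and the 6 of the large tumor with at least 50 cells (columns), with the CPM printed in each cell and the color giving log2(CPM + 10) less the median of the row. S100a14 falls to 23.1 CPM in the medium and 20.9 CPM in the large tumor in the cluster with most mesenchymal markers, and S100a6 falls to 1454 CPM in the enterocyte-like cluster of the large tumor.

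For 8 members with at least 1000 UMIs in the medium tumor, the genes whose log2(CPM + 10) over its 14 clusters was most like theirs were sought among 2802 genes. S100a14 ran with Cldn7 (r = 0.973), a claudin of epithelial tight junctions, Crb3 (0.970), an apical polarity protein, and Serpinb5 (0.969), the serpin maspin. S100a6 ran with 2200002D01Rik (0.978), Pcbd1 (0.970) and Ndufa4 (0.965), and S100a11 with Ndufa4 (0.947), S100a6 (0.939) and Ndufa7 (0.939). Ndufa4 and Ndufa7 are mitochondrial respiratory chain proteins. S100a16 ran with Nedd4 (0.969), a ubiquitin ligase, Arhgap1 (0.961) and Trip6 (0.956), and S100a10 with the chemokine Cxcl5 (0.864), Tnfrsf12a (0.844) and the calpain Capn2 (0.829). S100a4 ran with the cap-binding protein Eif4e (0.915), Hilpda (0.909) and Rilpl2 (0.876), S100a1 with Zfr (0.861), Dag1 (0.816) and Rpl38 (0.812), and S100a13 with Tmed7 (0.776), Hacd1 (0.755) and Golga7 (0.754). These are correlations over 14 clusters of 1 library, chosen as the highest of many, and so describe likeness only.

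Over single cells, 6 of the 45 pairs of members were correlated, and S100a6 with S100a11 gave the highest value of these. Their Spearman correlation over the 2330 epithelial-like cells in the medium tumor, thinned to 2500 UMIs, was 0.441, and 0.312 over the 1218 of the large tumor, thinned to 500. S100a14 had rho = 0.323 with Epcam and -0.291 with Vim in the medium tumor. In the large tumor, where S100a14 was seen in 4.27% of the thinned cells, the values were 0.0755 and -0.0843. S100a1 and S100a13, with 42 bases between their GENCODE starts, had r = 0.153 over the 14 clusters of the medium and 0.696 over the 10 of the large tumor, and rho over epithelial-like cells was 0.0767 and 0.0507. S100a8 and S100a9 had r = 0.982 over the 14 clusters of the medium and 0.951 over the 10 of the large tumor, and the highest points of both were clusters that hold leading barcodes. The cells share depth and library, and no test was made.

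The last comparison set the large-tumor epithelial-like cells against those of the medium tumor. S100a8 stood at 251 against 41.2 CPM, 6.08 times as high (5.42 to 6.83), and S100a9 at 280.4 against 40.4 CPM, 6.93 times as high (6.19 to 7.75). They were the 2 members over 2-fold higher, beside 3.25% of 7634 genes. The summed level of the granulocyte markers was also higher in the epithelial-like clusters of the large tumor. It ran from 51.8 to 131 CPM over those clusters against 19.9 to 49.6 CPM over those of the medium tumor. The 51.8 CPM rested on 1 UMI in a cluster of 18 cells. Of the 10 markers, 7 had a higher level in the large tumor. Retnlg, with 51.6 CPM (101 UMIs) against 5.15 CPM (93 UMIs), supplied most of the granulocyte marker UMIs in the large-tumor epithelial-like cells. None of the 10 reached 200 UMIs and Ly6g was at 0 in the large tumor, and their part in the S100a8 and S100a9 ratios was not tested. S100a11 stood at 1005 against 3255 CPM, 3.24 times lower, S100a16 at 121 against 315 CPM, 2.60 times lower, and S100a1 at 167 against 350 CPM, 2.09 times lower. These were the 3 members over 2-fold lower, beside 9.09% of all genes. S100a4 (ratio 1.61), S100a6 (0.832), S100a10 (1.25), S100a13 (0.602) and S100a14 (0.831) were within 2-fold, and the direction of S100a4 turned with finer clusters (resolution 1.2), to a log2 ratio of -0.09 from 0.63. Markers of the epithelial cells differed too, with 8 of 14 over 2-fold lower in the large tumor (Krt18 at a ratio of 0.233 and Krt19 at 0.237) and Epcam at 1.01, and their part in the S100 ratios was not tested. The median log2 ratio of the members was -0.26 and that of all genes -0.12, and once the latter was taken off, S100a1 was within 2-fold and S100a11 and S100a16 remained over 2-fold lower.

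Much the same differences between the tumors were seen in other cells. S100a11 was lower in the large tumor in each of the 7 groups that could be matched, of which 4 are all epithelial-like cells and 3 of the states within them, at 0.237 to 0.461 of its medium level, from endothelial-like cells to the clusters with most mesenchymal markers. S100a16 stood at 0.292 to 0.703 and S100a10, the other way, at 1.25 to 1.91 of the medium level in all 7 groups, although the intervals of S100a16 in endothelial-like and monocyte/macrophage-like cells and of S100a10 in endothelial-like cells included 1. S100a8 was higher in all 7 groups, at 4.804 to 48.2 times, and S100a9 at 6.93 to 68.3 times, with the highest values in monocyte/macrophage-like cells and the endothelial-like values on 2 and 4 UMIs in the large tumor. Without the leading barcodes the monocyte/macrophage-like cells stood at 444 CPM for S100a8 and 181 CPM for S100a9 in the large tumor, against 79.3 CPM (73 UMIs) and 63 CPM (58 UMIs) in the medium tumor, where they held none of these barcodes. Carcinoma and library cannot be told apart for a difference seen in every kind of cell. Without the 5 leading barcodes of each tumor the log2 ratios in epithelial-like cells were 2.80 for S100a8 and 2.85 for S100a9.

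S100a4, S100a6 and S100a14 changed with the group. S100a4 was 2.68 times as high in the large tumor between the clusters with most mesenchymal markers (2.19 to 3.28) and 6.05 times between stromal-like cells (2.68 to 13.8, on 15 and 13 UMIs), but stood at 0.700 between pit-like clusters (0.376 to 1.202). S100a6 stood at 1.199 between the clusters with most mesenchymal markers, 0.961 between the cycling and 0.635 between the pit-like clusters. S100a14 stood at 1.49 between the pit-like (1.10 to 1.98) and 1.94 between the cycling clusters (1.51 to 2.47), above 1 in both, while its ratio over all epithelial-like cells was below 1. Enterocyte-like clusters were named in the large tumor alone. Without the enterocyte-like and goblet-like clusters of the large tumor, which left 848 of its cells, S100a8 and S100a9 were over 2-fold higher. S100a11 and S100a16 were over 2-fold lower, and S100a1 was within 2-fold. This removal was made in the large tumor alone. The Tff3 and Reg1 and the Dmbt1 and Lcn2 clusters of the medium tumor, which were also named goblet-like, stayed in.

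**Figure D5:**
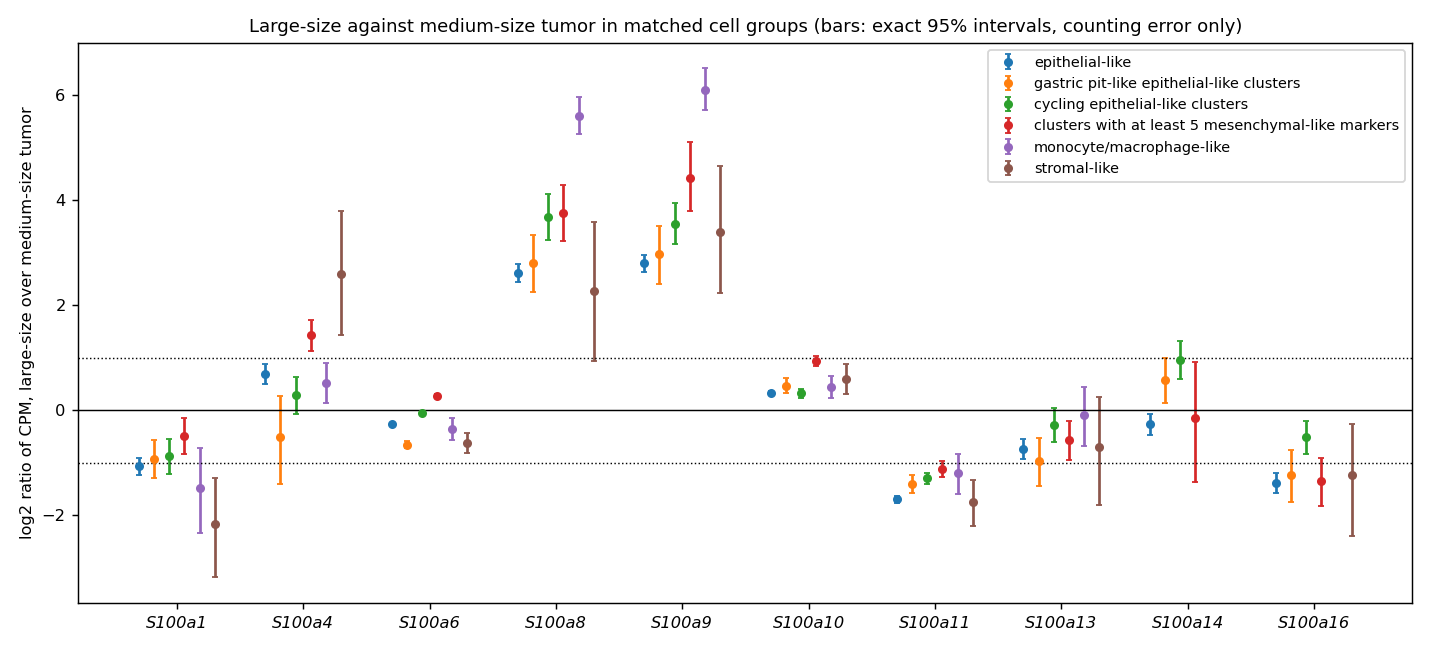
Log2 ratio of CPM, large over medium tumor (y axis), for the 10 S100 genes in 6 matched cell groups, with points of under 4 UMIs in the large tumor left out and dotted lines at 2-fold. S100a8 and S100a9 lie above and S100a11 below 0 in all groups drawn, while S100a4 lies at 2.68 times between the clusters with most mesenchymal markers and 0.700 times between the pit-like clusters.

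Partners and receptors of the family were measured as a fixed list of 15 genes. Of these, 12 in the medium tumor had at least 200 UMIs in the monocyte/macrophage-like and epithelial-like cells. Il1a, a cytokine exported with S100a13, was higher in monocyte/macrophage-like cells, at 353 against 14.2 CPM, and Anxa1, Anxa2, Bsg and Fgf1 were over 2-fold lower, beside 5.55% higher and 17.6% lower of all genes. Between mesenchymal-like and other epithelial-like clusters 0 of the 12 passed 2-fold in either direction, beside 2.13% higher and 3.42% lower of all genes. Stromal-like cells had 2 of the 12 higher (Anxa6 and Il1a) and 1 lower (Anxa11), beside 5.29% and 10.9% of all genes, and in the large tumor 6 had enough UMIs, with Anxa2 lower in monocyte/macrophage-like cells beside 21.5% of all genes. Between the tumors 0 of 12 were higher and 4 lower in the large tumor, namely Anxa2, Anxa11, Ly96 and Bsg, beside 3.25% and 9.09% of all genes. Anxa2, the partner of S100a10, fell from 1880 CPM for epithelial-like cells of the medium to 778 in the large tumor, while S100a10 stood at 1747 and 2188 CPM. Over clusters, S100a10 and Anxa2 had r = 0.487 in the medium (14 clusters) and 0.709 in the large tumor (10 clusters), and S100a11 and Anxa1 0.655 and 0.722. S100a4 and the myosin heavy chain Myh9 had r = -0.143 and -0.210. The sign turned between the tumors for S100a10 with Ahnak (0.518 and -0.241), S100a6 with Cacybp (0.127 and -0.185) and S100a6 with Anxa11 (0.453 and -0.168). Of the receptors, Ager was counted in 12 UMIs of the epithelial-like cells of the medium and in 0 of the large tumor, and Tlr4 stood at 13.03 CPM in monocyte/macrophage-like and 4.54 CPM in epithelial-like cells in the medium tumor.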

How the data were processed

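Single cells of 2 KPC tumors, dissociated with a Miltenyi kit, were sequenced with 10x Genomics 3′ v2 chemistry. The authors ran Cell Ranger on mm10 per the labels (submitters' processing notes), and deposited UMI counts per gene and cell in 1 table per tumor, merging 4 technical replicates. The Cell Ranger version and annotation were not given in the sources used here. The deposited counts were used as they are, and 39 symbols found on more than 1 row were kept apart.

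Each tumor was clustered on its own with Seurat 5.3.0 in R 4.3.3 (log normalization to 10000, 2000 variable genes less the 9 S100 genes among them, 10 principal components, resolution 0.8). A marker counted for a cluster when 10% of its cells held it at 25% or more of the level of the highest cluster. A cluster was named from at least 3 markers of a class, and stayed unnamed when at least 60% of the markers of another class counted too. The leading genes are the 10 of highest fold among genes in at least 25% of a cluster's cells. Scrublet (scanpy 1.11.5, Python 3.11.15) called 0 and 9 doublets (0.587% of cells in the large tumor) and none were removed. Counts were summed per cell group. Ratios, with exact 95% Poisson intervals (scipy 1.17.1, numpy 2.4.6), cover counting error only, and a count of 0 was given a limit of 3 counts. Calls are over 2-fold on log2(CPM + 10) among genes with at least 200 UMIs in the groups compared. No p-value was computed, since each tumor is 1 sample. Shares of cells were computed after thinning to 2500 (medium) or 500 UMIs (large), which left out 0 cells. The scripts were tested on simulated data. Sequences came from RefSeq and exons from GENCODE M21, both on GRCm38. The genes named are the members, the other S100 genes, S100 fused-type genes, partners and receptors, and the 3 genes most like each member with at least 1000 UMIs. The members, lists and thresholds were chosen with earlier results of these data known. TMM scaling (edgeR 4.0.16), other clusterings, filters, pseudocounts and thinning were tried as alternatives. Part of the genotype is not reported here.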

Additional observations from a re-analysis of the deposited data

How the results depend on the processing

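The counts of members past 2-fold moved by over 1.5 times in 12 cases. For monocyte/macrophage-like against medium-tumor epithelial-like cells, 3 members in place of 1 were higher at resolution 0.4 and without the 5 barcodes richest in S100a8 and S100a9. In the large tumor, 3 in place of 5 were lower at resolution 1.2 and 2 after thinning (S100a16 in both and S100a1 and S100a14 in the latter had under 200 UMIs, with log2 ratios of -3.18 and -3.57 for S100a16, -1.32 for S100a1 and -3.30 for S100a14), and 1 in place of 3 was higher without the 5 barcodes, where S100a9 turned from higher to lower (log2 ratio -0.42). For stromal-like cells 0 in place of 1 were higher at resolution 1.2 and with every cell weighted equally. For mesenchymal-like clusters 0 in place of 1 were higher at resolution 1.2, with the S100 genes kept in the clustering and with only clusters of at least 5 mesenchymal markers, where 2 in place of 1 were lower (S100a9 and S100a14). Between gastric pit-like clusters of the tumors 0 in place of 2 were higher, because S100a8 and S100a9 fell under 200 UMIs there. The other 118 counts stayed within 1.5 times. S100a4 turned lower in the large tumor at resolution 1.2 (log2 ratio -0.09) and between pit-like clusters (-0.44). Settings that leave out barcodes, take only clusters of at least 5 mesenchymal markers or only pit-like clusters, or drop the enterocyte-like and goblet-like clusters of the large tumor were chosen after seeing the data. No paired analysis was possible because the technical replicates of a tumor were merged in 1 table, and none could be left out in turn. The stromal-like comparison could not be made at resolution 0.4 or with 20 principal components, where no stromal-like cells were named, and S100a14 in the large tumor has no ratio with nothing added. Depth limits low levels, and a count of 0 allows up to 15.2 CPM in monocyte/macrophage-like and 188 CPM in endothelial-like cells of the large tumor.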

Other observations

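Among the other S100 genes, S100g, the calbindin of gut absorptive cells that binds calcium during its uptake, differed most between the tumors. It stood at 10.2 CPM in epithelial-like cells in the medium and 280.0 CPM in those of the large tumor. In the large tumor it was highest in the enterocyte-like (Papss2, Fabp1) cluster, at 1770 CPM on 342 UMIs, the same cluster in which S100a6, S100a11 and S100a13 were lowest, and stood at 267 CPM in the pit-like and 218 CPM in the goblet and enterocyte-like cluster. The monocyte/macrophage-like cells, which should lack it, gave 30.5 CPM.

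S100b, best known from glia, was counted at 33.7 CPM in epithelial-like cells in the medium and 5.11 CPM in those of the large tumor. In the medium tumor it was highest in the Tff3 and Reg1 cluster at 115 CPM and the Dmbt1 and Lcn2 cluster at 86.0 CPM, and its level in the mesenchymal-like clusters was 15.6 against 58.0 CPM in the others. S100a7a was counted in 40 UMIs of medium-tumor epithelial-like cells, 39 of them in the mesenchymal-like clusters. Of the 7 S100 fused-type genes, which build the cornified layer of skin, Tchh alone had UMIs in epithelial-like cells, 123 in the medium and 5 in the large tumor, and 0 of the 7 passed the limit of 200 UMIs.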
